A study of Mus musculus with 30 samples.

Results

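Zinc handling in the lung was followed through 6 genes: the metallothioneins Mt1 and Mt2, the zinc importers Slc39a14 (ZIP14) and Slc39a8 (ZIP8), the zinc exporter Slc30a1 (ZnT1), and Mtf1, the zinc-sensing transcription factor. They were chosen by name, as the probe sets whose gene symbol in the array's annotation was that of one of the 6 genes. This gave 16 probe sets of 45037, of which 13 passed the filter on low values, and 6 genes of 18193 named on the array. All 6 genes were among the 13089 genes tested. RNA came from whole lungs of 30 C57BL/6 mice, 1 array for each mouse, in 8 groups. The adult groups, 16 weeks old, were LPS, MV, LPS+MV and control, with 4 mice each. The juvenile groups, 21 days old, were LPS and control with 4 mice each, and MV and LPS+MV with 3 mice each. LPS mice inhaled nebulized lipopolysaccharide of E. coli 0111:B4 (20 mL at 0.1 mg/mL) for 30 min and were then left to breathe on their own, with food and water, for 2 h. MV mice were mechanically ventilated for 2 h with breaths of 15 mL/kg, 80 breaths/min, 30% oxygen and a positive end-expiratory pressure of 2 cmH2O. LPS+MV mice received the aerosol and then this ventilation. Controls were untreated and breathed on their own.

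Metallothioneins are small, cysteine-rich proteins that hold zinc and copper in the cytosol and also bind cadmium. When free zinc rises, MTF1 enters the nucleus and binds metal response elements, short DNA motifs in the promoters of Mt1, Mt2 and Slc30a1. Transporters of the SLC39 (ZIP) family bring zinc into the cytosol, and those of the SLC30 (ZnT) family move it out of the cell or into organelles. Mt1, Mt2 and Slc39a14 are also known as acute phase genes in liver, where interleukin-6 raises them, and the metallothioneins are classic targets of glucocorticoids.

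The promoters of 3 members are shown because they hold the motif that MTF1 is known to bind, and because Mt1 and Mt2, which lie next to each other on chromosome 8, were the members that moved most. Each window runs from 250 bases before to 50 bases after the gene's annotated start, on the + strand of GRCm38.p6, as given by RefSeq. Capitals mark the core of the metal response element, TGCACNC or TGCGCNC, on either strand. The windows are chr8:94172368-94172667 for Mt2, chr8:94178839-94179138 for Mt1 and chr1:191906531-191906830 for Slc30a1.
Mt2: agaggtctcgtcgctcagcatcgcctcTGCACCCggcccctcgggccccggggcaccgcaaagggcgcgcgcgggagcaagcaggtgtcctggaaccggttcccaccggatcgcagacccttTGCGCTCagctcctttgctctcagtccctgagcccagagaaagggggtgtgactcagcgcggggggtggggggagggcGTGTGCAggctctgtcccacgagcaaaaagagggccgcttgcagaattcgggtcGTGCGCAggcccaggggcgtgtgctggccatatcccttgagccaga
Mt1: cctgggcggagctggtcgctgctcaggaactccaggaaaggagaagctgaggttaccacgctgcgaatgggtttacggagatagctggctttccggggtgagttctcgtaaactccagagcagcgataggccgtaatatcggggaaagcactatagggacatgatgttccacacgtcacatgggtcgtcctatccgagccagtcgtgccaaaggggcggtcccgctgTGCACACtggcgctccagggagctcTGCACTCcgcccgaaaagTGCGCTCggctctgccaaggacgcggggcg
Slc30a1: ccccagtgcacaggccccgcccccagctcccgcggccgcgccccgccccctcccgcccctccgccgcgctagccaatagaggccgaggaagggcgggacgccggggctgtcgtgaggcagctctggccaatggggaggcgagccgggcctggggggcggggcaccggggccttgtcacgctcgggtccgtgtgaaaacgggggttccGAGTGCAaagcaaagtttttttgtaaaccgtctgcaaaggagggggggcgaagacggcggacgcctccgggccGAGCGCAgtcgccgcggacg
The Mt2 window held 4 matches, the Mt1 window 3 and the Slc30a1 window 2. Of all 32851 promoter windows of this length, 25.7% held at least 1 match, 7.11% at least 2, 1.97% at least 3 and 0.517% at least 4. Slc39a8 had 2 windows, with 0 matches and 1 match, and the window of Mtf1 held 0. A match is a run of letters and shows no binding. Promoter windows were found for 5 of the 6 members, all but Slc39a14.

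Values are probe set intensities on a linear scale, and array medians were 21.6 to 22.8. Lung markers were bright on all 30 arrays: the surfactant gene Sftpc read 18124 to 22163 and the airway secretory gene Scgb1a1 16684 to 23537, while the liver gene Alb read 14.1 to 53.8. Fewer cells of a type and less RNA per cell cannot be told apart in whole lung. Xist, which is transcribed from the inactive X of females, was high on 11 arrays (425 to 771) and low on 19 (18.2 to 27.0). High arrays were 4 of 4 in adult MV, 3 of 4 in adult LPS+MV, 0 of 4 in adult LPS and 0 of 4 in adult control. In juveniles they were 1 of 3 in MV, 2 of 3 in LPS+MV, 0 of 4 in LPS and 1 of 4 in control. The Y-linked gene Eif2s3y read 5.84 to 10.1 on the arrays with high Xist and 160 to 238 on those with low Xist. Sex is not among the labels. By these transcripts all adult MV lungs had the female pattern and all adult control lungs the male pattern. Between adult MV and adult control lungs sex, read in this way, and ventilation cannot be told apart. Over all adult groups they can only partly be told apart. Juvenile LPS+MV replicate 3, adult LPS+MV replicate 2, juvenile control replicate 4 and juvenile MV replicate 3 stood apart from the other arrays of their groups across all genes. The number of arrays, 3 or 4 a group, limits the precision of every value below.

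Inhaled LPS raised both metallothioneins and the importer Slc39a14 at both ages, with or without ventilation, and these were the largest changes among the members. Mt2 rose most, by about 4 on the log2 scale. Ventilation alone raised the same 3 genes in adults and lowered Slc39a8 there, while in juveniles only Slc30a1 passed the test, and it was lower. Mtf1 passed in none of the 19 comparisons. Genes were tested with limma on log2(intensity + 32), with p-values adjusted by Benjamini and Hochberg over all 13089 genes of a comparison and a threshold of 0.05. Fold changes below are on this scale and are smaller than those of the intensities themselves for dim genes.

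Mt2, a zinc store of most tissues, read 6014, 5845, 5429 and 5711 in adult LPS lungs, against 276, 213, 326 and 602 in adult control lungs. In juveniles it read 4965, 4587, 4899 and 4937 with LPS, against 166, 236, 141 and 369.7 in controls. Every LPS lung was far above every control lung of its age. The log2 fold change was 4.00 ± 0.25 (SE; adjusted p = 1.1e-12) in adults and 4.31 ± 0.25 (adjusted p = 1.8e-13) in juveniles, from limma's fit across all genes. The difference between the ages in the response to LPS was -0.31 ± 0.36 on the log2 scale, with adjusted p = 0.72.

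Mt1, which encodes the paralogous protein from the neighbouring gene, read 8427, 6575, 7153 and 8929 in adult LPS lungs, against 756, 917, 948 and 1508 in adult control lungs. Juvenile lungs gave Mt1 values of 5424, 5461, 5954 and 5624 with LPS, against 539, 625, 578 and 1399 in controls. The groups were again far apart, and the fourth juvenile control was well above the other juvenile controls. The log2 fold change was 2.91 ± 0.23 (SE; adjusted p = 1.8e-10) in adults and 2.90 ± 0.23 (adjusted p = 1.7e-10) in juveniles, by limma. These values come from a probe set that may also bind related transcripts. A second, dim Mt1 probe set read 54.7 to 83.5 in adult LPS lungs, against 16.4 to 20.1 in adult control lungs. Juvenile lungs read 30.0 to 34.6 with LPS, against 19.0 to 22.7 in controls. It also rose at both ages, by 0.98 ± 0.09 in adults (adjusted p = 2.7e-09) and by 0.29 ± 0.09 in juveniles (adjusted p = 0.021), in limma's fit over all probe sets. On that probe set the response to LPS was larger in adults than in juveniles, by 0.68 ± 0.13 on the log2 scale (adjusted p = 0.0029), while on the bright one the difference was 0.01 ± 0.33 (adjusted p = 0.99). When Mt1 was taken as the mean of both probe sets, its rise with LPS in juveniles was 1.60 on the log2 scale and was still called.

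**Figure D1:**
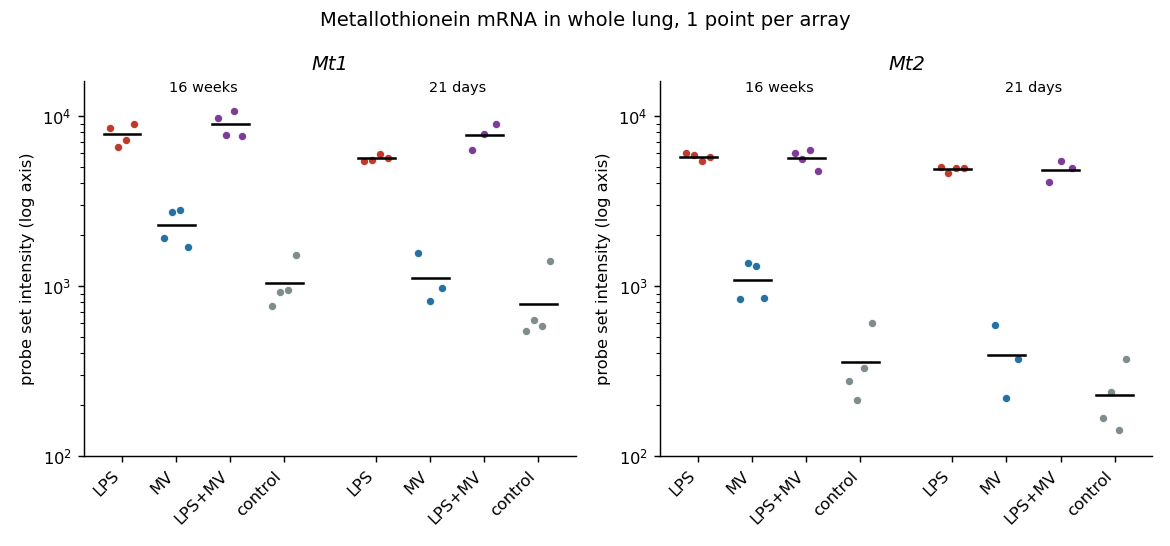
Intensity of Mt1 and Mt2 on a log axis, 1 point per array, by treatment within each age; bars are group means. Every LPS and LPS+MV lung lies above every MV and control lung at both ages, and adult MV lungs lie between.

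With ventilation alone, Mt2 read 839.8, 1352, 1303 and 850.3 in adult MV lungs, against 276, 213, 326 and 602 in adult control lungs. Mt1 read 1909.8, 2723, 2776 and 1697 in adult MV lungs, against 756, 917, 948 and 1508 in adult control lungs. For both genes the adult groups did not overlap. The log2 fold change was 1.59 ± 0.25 for Mt2 (adjusted p = 4.4e-05) and 1.13 ± 0.23 for Mt1 (adjusted p = 0.00068), by limma. The dim Mt1 probe set was not called, at 0.13 ± 0.09 (adjusted p = 0.29), and the mean of both Mt1 probe sets was, at 0.63 ± 0.15 (adjusted p = 0.0023). All 4 of these MV lungs and 0 of these 4 control lungs had high Xist. With Xist as a term in the model the changes were 1.60 ± 0.33 for Mt2 (adjusted p = 0.0032) and 1.12 ± 0.31 for Mt1 (adjusted p = 0.02). The size of that term came from groups with both levels of Xist, not from these groups, and was assumed equal in all groups.

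In juveniles Mt2 read 587, 219 and 368 with MV, against 166, 236, 141 and 369.7 in controls. Mt1 read 1551, 812 and 973 with MV, against 539, 625, 578 and 1399 in controls. The juvenile groups overlapped for both genes. The log2 differences were 0.69 ± 0.27 for Mt2 (adjusted p = 0.1) and 0.54 ± 0.25 for Mt1 (adjusted p = 0.17), by limma, and neither passed. Without juvenile control replicate 4 both passed, at 0.92 for Mt2 (adjusted p = 0.024) and 0.85 for Mt1 (adjusted p = 0.012), and without juvenile MV replicate 2 Mt2 passed at 1.02 (adjusted p = 0.026). Set directly against each other, adult MV lungs were above juvenile MV lungs by 1.46 ± 0.27 for Mt2 (adjusted p = 0.00023) and 1.03 ± 0.25 for Mt1 (adjusted p = 0.0036), while the dim Mt1 probe set gave 0.06 ± 0.10 (adjusted p = 0.72). The response to MV, each age against its own control, differed between the ages by 0.91 ± 0.37 for Mt2 (adjusted p = 0.14) and 0.59 ± 0.35 for Mt1 (adjusted p = 0.32). A larger response to ventilation in adults was not called for either gene, although Mt2 passed without adult control replicate 4, at 1.18 (adjusted p = 0.043).

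When ventilation followed LPS, Mt2 read 6011, 5528, 6290.2 and 4744 in adult LPS+MV lungs and 4076, 5416 and 4897 in juvenile LPS+MV lungs. Mt1 read 9668, 7742, 10675 and 7644 in adult LPS+MV lungs and 6312, 7816 and 8981 in juvenile LPS+MV lungs. Mt2 overlapped with LPS alone at both ages, and Mt1 overlapped with it in adults only. LPS+MV minus LPS was -0.03 ± 0.25 for Mt2 and 0.20 ± 0.23 for Mt1 in adults (adjusted p = 0.96 and 0.66). In juveniles it was -0.02 ± 0.27 for Mt2 and 0.44 ± 0.25 for Mt1 (adjusted p = 0.97 and 0.27). The juvenile Mt1 value passed with the compared groups fitted alone (0.44 ± 0.11, adjusted p = 0.032). As the mean over its probe sets Mt1 passed at 0.58 ± 0.16 (adjusted p = 0.014). The dim Mt1 probe set was higher in juvenile LPS+MV lungs, at 56.0, 83.2 and 85.1, against 30.0 to 34.6 in juvenile LPS lungs, a log2 change of 0.72 ± 0.10 (adjusted p = 1.6e-05). On the bright Mt1 probe set the same groups did not overlap either: the lowest juvenile LPS+MV lung read 6312 and the highest juvenile LPS lung 5954.

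In adults the effect of ventilation on Mt2 differed with LPS, by -1.63 ± 0.36 on the log2 scale (adjusted p = 0.0078), the LPS by MV interaction. It sets the change of -0.03 for LPS+MV against LPS beside the change of 1.59 for MV against control. Mt2 was the only member that passed there, against 7.17% of all genes, and Mt1 gave -0.94 ± 0.33 (adjusted p = 0.081). Without the 3 adult arrays with squamous epithelial transcripts described below, the Mt2 value was -1.60 ± 0.42 (adjusted p = 0.064), and without adult control replicate 4 Mt1 passed at -1.13 (adjusted p = 0.04). In juveniles 0 of the 6 members passed this interaction, against 0.756% of all genes, and Mt2 gave -0.71 ± 0.39 (adjusted p = 0.47). The bright Mt1 probe set gave -0.10 ± 0.36 there (adjusted p = 0.96), while the dim Mt1 probe set passed in the other direction, at 0.71 ± 0.14 (adjusted p = 0.0089). The highest intensity of any probe set on the arrays was 25073, above the highest Mt2 value of 6290.2 and the highest Mt1 value of 10675. Probe sets can differ in their ceilings, and whether Mt1 or Mt2 came near its own was not tested.

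Counted together, members called were 4 of 6 in adult LPS against control, where 36% of all genes were called, and 3 of 6 in juvenile LPS against control, where 22.9% were. For LPS+MV against control they were 3 of 6 in adults (42.1% of all genes) and 3 of 6 in juveniles (31.3%). For MV against control they were 4 of 6 in adults (31.5%) and 1 of 6 in juveniles (10.9%). Of the genes called in adult MV against control, 77.3% were lower, and 58.6% were lower after quantile normalization. For LPS+MV against LPS they were 0 of 6 in adults (7.08%) and 0 of 6 in juveniles (15.5%). For LPS+MV against MV they were 3 of 6 in adults (17.4%) and 3 of 6 in juveniles (14.7%), Mt1, Mt2 and Slc39a14 at both ages. Slc30a1 was not called there in juveniles (0.30 ± 0.11, adjusted p = 0.076). It passed in juveniles with array weights (adjusted p = 0.015), quantile normalization (0.045) or without LPS+MV replicate 1 (0.039). In adults Slc30a1 passed only as the mean over its probe sets (0.22 ± 0.06, adjusted p = 0.0093). With members this few and background shares this high, the counts say little, and the sizes of the changes carry the description.

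**Figure D2:**
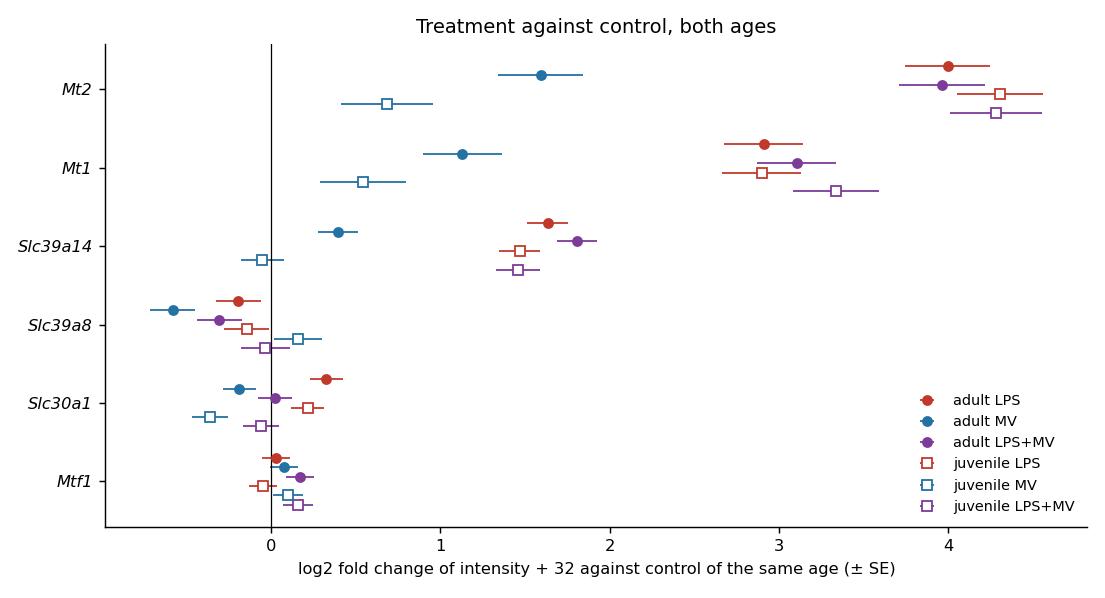
Log2 fold change of each member against control of the same age, with standard errors from limma; filled circles are adult groups and open squares juvenile groups. Mt2, Mt1 and Slc39a14 lie far to the right with LPS and LPS+MV, while Slc39a8, Slc30a1 and Mtf1 lie closer to 0. Called changes among the latter are Slc39a8 in adult MV (-0.58), Slc30a1 in juvenile MV (-0.36) and Slc30a1 in adult LPS (0.33).

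Slc39a14, the importer that carries zinc, non-transferrin iron and manganese, read 243, 253, 209.8 and 246 in adult LPS lungs, against 59.8, 59.1, 42.2 and 59.2 in adult control lungs. Juvenile values of Slc39a14 were 296, 236, 266 and 245 with LPS, against 68.9, 84.9, 65.0 and 76.3 in controls. Every LPS lung was above every control lung of its age. The log2 fold change was 1.64 ± 0.12 (SE; adjusted p = 2.3e-11) in adults and 1.47 ± 0.12 (adjusted p = 2e-10) in juveniles, by limma. A second probe set rose less, by 0.46 ± 0.11 in adults (adjusted p = 0.0019) and 0.44 ± 0.11 in juveniles (adjusted p = 0.0048). Another dim Slc39a14 probe set gave 0.15 ± 0.07 in adults, which was not called (adjusted p = 0.11), and 0.28 ± 0.07 in juveniles, which was (adjusted p = 0.0065). Averaged over its probe sets, the change in Slc39a14 was 0.75 in adults and 0.73 in juveniles and was still called.

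With LPS+MV, Slc39a14 read 285, 228, 289 and 289.8 in adults and 241, 323 and 221 in juveniles. Most of these lungs were in or just above the range of LPS alone at their age, and 1 juvenile lung, at 221, was below the juvenile LPS range of 236 to 296. LPS+MV minus LPS was 0.17 ± 0.12 in adults (adjusted p = 0.4) and -0.01 ± 0.13 in juveniles (adjusted p = 0.98). With MV alone it read 94.2, 104, 69.9 and 65.3 in adults, against 59.8, 59.1, 42.2 and 59.2 in controls. These adult groups did not overlap, and the change of 0.40 ± 0.12 passed (adjusted p = 0.013). The second probe set gave 0.30 ± 0.11 (adjusted p = 0.043) and the other dim one -0.09 ± 0.07 (adjusted p = 0.41). The change on the first did not pass with the Xist term (0.36 ± 0.16, adjusted p = 0.14), without adult MV replicate 2 (0.31, adjusted p = 0.06) or without adult control replicate 3 (0.32, adjusted p = 0.059). Juvenile Slc39a14 values were 72.7, 52.5 and 87.4 with MV, against 68.9, 84.9, 65.0 and 76.3 in controls, and the groups overlapped (-0.05 ± 0.13, adjusted p = 0.86).

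Slc39a8, the other importer, carries zinc and manganese and is known to be strongly expressed in lung. It read 1631, 1407, 1212 and 1353 in adult MV lungs, against 2081, 1975, 2053 and 2305 in adult control lungs. Juvenile lungs read 2223, 2085 and 2066 with MV, against 1422, 1794, 2201 and 2308 in controls. All adult MV lungs were below all adult controls, while juvenile MV lungs lay inside the range of their controls. The log2 change was -0.58 ± 0.13 (adjusted p = 0.0016) in adults and 0.16 ± 0.14 (adjusted p = 0.54) in juveniles, by limma. The change with MV differed between the ages by -0.74 ± 0.20 on the log2 scale (adjusted p = 0.024). Slc39a8 was the only member called in that comparison, against 6.15% of all genes. Adult MV lungs were also directly below juvenile MV lungs, by -0.60 ± 0.14 (adjusted p = 0.003).

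The fall of Slc39a8 in adult MV lungs was not called with the Xist term (-0.46 ± 0.17, adjusted p = 0.076), and neither was its difference between the ages (-0.63 ± 0.22, adjusted p = 0.14). The difference between the ages also missed the threshold without adult MV replicate 3 (-0.68, adjusted p = 0.056), juvenile MV replicate 1 (-0.71, adjusted p = 0.061), juvenile MV replicate 2 (-0.75, adjusted p = 0.053) or juvenile control replicate 1 (-0.60, adjusted p = 0.057). On the second Slc39a8 probe set the adult change with MV was -0.33 ± 0.19 (adjusted p = 0.21) and its difference between the ages -0.73 ± 0.29 (adjusted p = 0.13). Slc39a8 read 1617 to 1993 in adult LPS lungs and 1379 to 2143 in adult LPS+MV lungs, against 1975 to 2305 in adult controls, and neither change was called (-0.19 ± 0.13, adjusted p = 0.27, and -0.31 ± 0.13, adjusted p = 0.065). Without adult LPS+MV replicate 4 the LPS+MV value was -0.42 (adjusted p = 0.015). In juveniles it read 1435 to 2012 with LPS and 1551 to 2095 with LPS+MV, within or close to the control range, with adjusted p = 0.49 and 0.89.

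Slc30a1, the plasma membrane exporter and an MTF1 target, moved little next to the metallothioneins. It read 549, 588, 461 and 473 in adult LPS lungs, against 427, 410.1, 387 and 392 in adult control lungs. Juvenile values were 703, 677, 549.6 and 535 with LPS, against 492, 539, 499 and 560.2 in controls. The adult groups did not overlap and the juvenile groups did. The log2 change was 0.33 ± 0.10 (adjusted p = 0.01) in adults and 0.22 ± 0.10 (adjusted p = 0.11) in juveniles, by limma. A second, dimmer Slc30a1 probe set rose with LPS at both ages, by 0.34 ± 0.06 in adults (adjusted p = 0.00014) and 0.20 ± 0.06 in juveniles (adjusted p = 0.023).

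With MV alone, Slc30a1 read 370.4, 423 and 407 in juveniles, against 492, 539, 499 and 560.2 in juvenile controls. The juvenile groups did not overlap, and the change of -0.36 ± 0.11 passed (adjusted p = 0.028). Without juvenile MV replicate 1 the change was -0.31 (adjusted p = 0.12), without juvenile MV replicate 3 it was -0.37 (adjusted p = 0.074), without juvenile control replicate 2 it was -0.34 (adjusted p = 0.063) and without juvenile control replicate 4 it was -0.33 (adjusted p = 0.058). The size stayed close to that with all arrays, and the threshold was missed each time. On the dimmer Slc30a1 probe set the change was 0.01 ± 0.07 (adjusted p = 0.94). In adults it read 371, 399.6, 324 and 314 with MV, against 427, 410.1, 387 and 392 in controls, with overlap and no call (-0.19 ± 0.10, adjusted p = 0.15).

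With LPS+MV, Slc30a1 read 393, 384, 413 and 458 in adults and 441, 466 and 602 in juveniles. On this probe set the change against control was 0.02 ± 0.10 in adults (adjusted p = 0.88) and -0.06 ± 0.11 in juveniles (adjusted p = 0.71). The dimmer Slc30a1 probe set differed in adults, where LPS+MV was 0.28 ± 0.06 above control (adjusted p = 0.00077) and -0.06 ± 0.06 from LPS alone (adjusted p = 0.62). In juveniles it gave 0.12 ± 0.07 against control (adjusted p = 0.2). As the mean over both probe sets, Slc30a1 in adult LPS+MV lungs was 0.15 ± 0.06 above control (adjusted p = 0.045). On the brighter probe set LPS+MV minus LPS was -0.30 ± 0.10 in adults (adjusted p = 0.056) and -0.28 ± 0.11 in juveniles (adjusted p = 0.073), neither called. Both passed after quantile normalization (adjusted p = 0.033 and 0.04) and with an array left out, in adults LPS replicate 3 (0.049) or LPS+MV replicate 4 (0.046), in juveniles LPS replicate 4 (0.041) or LPS+MV replicate 3 (0.019). Between untreated lungs, Slc30a1 was lower in adults than in juveniles, by -0.34 ± 0.10 (adjusted p = 0.01), with no overlap, and the dimmer probe set gave -0.10 ± 0.06 (adjusted p = 0.3). It was the only member called between the controls, against 25.2% of all genes.

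Mtf1 was dim and nearly flat. It read 81.1 to 98.3 in adult LPS lungs, 87.0 to 105 in adult MV lungs and 92.5 to 107 in adult LPS+MV lungs, against 80.8 to 89.7 in adult controls. In juveniles it read 75.4 to 88.7 with LPS, 83.5 to 118 with MV and 86.3 to 119 with LPS+MV, against 77.7 to 95.2 in controls. Its largest change against control was 0.17 ± 0.08 in adult LPS+MV lungs (adjusted p = 0.096). Adult LPS+MV and adult control lungs did not overlap. This change passed with array weights (0.19, adjusted p = 0.02) and as the mean over probe sets (0.14, adjusted p = 0.038). It also passed with the compared groups fitted alone (0.17, adjusted p = 0.038) or without the 4 arrays that stood apart (0.21, adjusted p = 0.019). Of the other Mtf1 probe sets past the filter, 1 rose in adult LPS+MV lungs, by 0.32 ± 0.09 (adjusted p = 0.0079), and was also above adult LPS lungs there, by 0.29 ± 0.09 (adjusted p = 0.045). MTF1 protein and its activation by zinc were not measured.

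**Figure D3:**
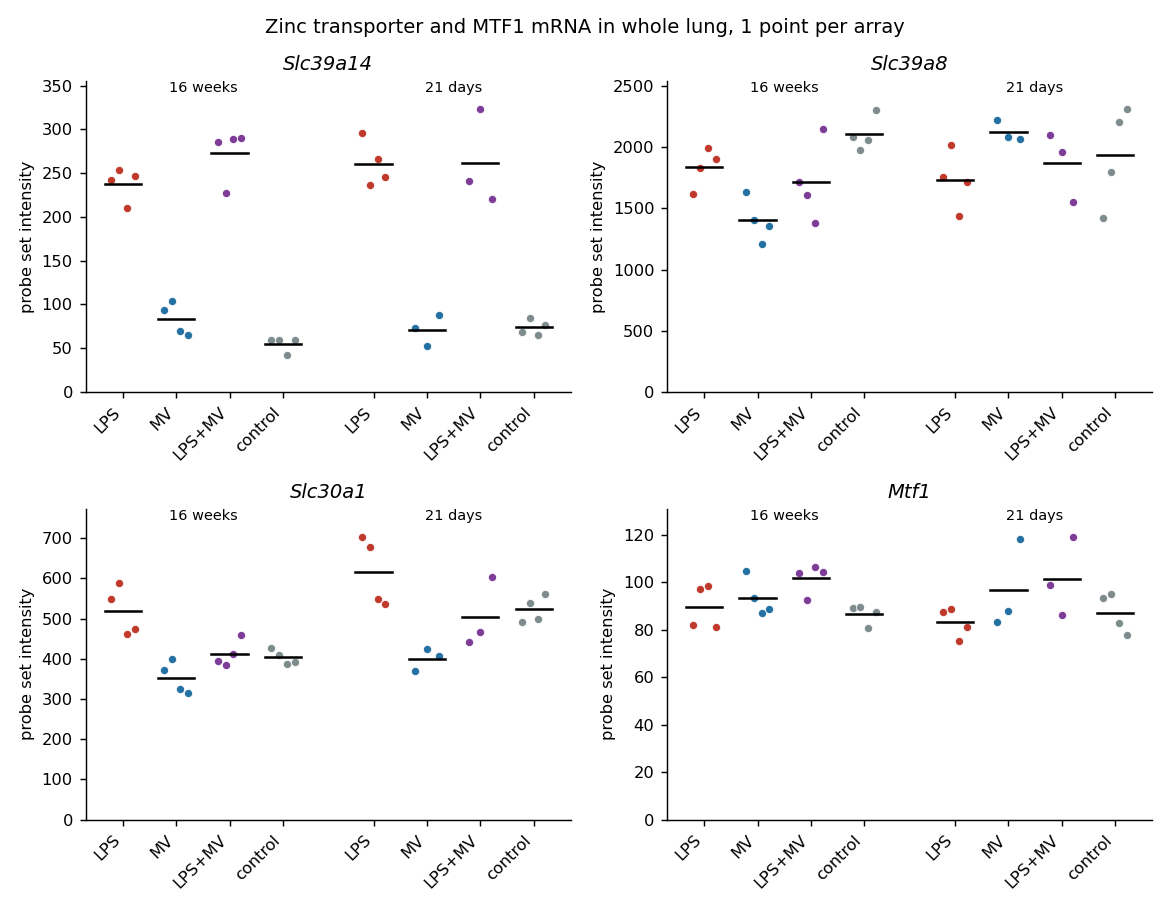
Intensity of Slc39a14, Slc39a8, Slc30a1 and Mtf1 on linear axes that start at 0, 1 point per array, bars at group means. Slc39a14 separates by LPS, Slc39a8 is low in adult MV, and Mtf1 stays between 75.4 and 119.

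Ordered by level, the groups fell into blocks for the members that moved. For Mt2 the order from low was juvenile control, adult control, juvenile MV, adult MV, juvenile LPS+MV, juvenile LPS, adult LPS+MV and adult LPS. Adult MV was above juvenile MV (adjusted p = 0.00023) and juvenile LPS+MV above adult MV (adjusted p = 8.6e-07), and no other neighbours in that order passed. Mt1 had the same order up to adult MV and the same breaks, with adjusted p = 0.0036 below adult MV and 7e-05 above it. For Slc39a14 the only break between neighbours lay between adult MV and adult LPS (adjusted p = 6.6e-09). Slc39a8, Slc30a1 and Mtf1 had no pair of neighbours that passed.

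Between adults and juveniles given LPS no member was called (0 of 6, against 16.4% of all genes), nor between those given LPS+MV (0 of 6, against 12.2%). Yet in adult LPS lungs Mt1 read 6575 to 8929 and Mt2 5429 to 6014, above all juvenile LPS lungs (5424 to 5954 and 4587 to 4965). The differences were 0.46 ± 0.23 for Mt1 (adjusted p = 0.2) and 0.24 ± 0.25 for Mt2 (adjusted p = 0.58), by limma. With the LPS groups fitted alone both passed (adjusted p = 0.0023 and 0.0092). Mt1 also passed as the mean over its probe sets, at 0.54 (adjusted p = 0.012). With MV the members called between the ages were Mt1, Mt2 and Slc39a8 (3 of 6, against 23.3%). For the responses to LPS and to LPS+MV, 0 of 6 members were called between the ages, against 3.7% and 2.1% of all genes. Between the controls the bright metallothionein values were 0.45 ± 0.23 higher in adults for Mt1 (adjusted p = 0.17) and 0.55 ± 0.25 higher for Mt2 (adjusted p = 0.11). Without juvenile control replicate 4 both passed, at 0.75 for Mt1 (adjusted p = 0.0063) and 0.79 for Mt2 (adjusted p = 0.018), and without adult control replicate 2 Mt2 passed at 0.74 (adjusted p = 0.042).

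On the bright Mt1 probe set, which may also bind related transcripts, Mt1 and Mt2 rose and fell together from lung to lung. Their log2 values had a Pearson correlation of 0.989 over the 30 arrays, and of 0.867 when each array was set against its own group mean. Mt1 and Slc39a14 gave 0.925 over the 30 arrays and 0.221 within groups, and Mt2 and Slc39a14 gave 0.939 and 0.328. The importer followed the metallothioneins across groups more closely than within them. Slc30a1 gave 0.259 with Mt1 and 0.305 with Mt2, and Mtf1 0.174 and 0.147. All arrays share the same normalization, and these values are descriptions.

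Among all genes tested, those most like Mt2 over the 30 arrays were Cd14, the LPS co-receptor (Pearson correlation 0.978), Osmr, the oncostatin M receptor (0.975), Birc3, an inhibitor of apoptosis (0.970), Tlr2, a receptor for bacterial lipoproteins (0.968), and Ch25h, which makes an oxysterol (0.967). For Mt1 they were Ch25h (0.979), Birc3 (0.971), Arg2, a mitochondrial arginase (0.964), Rab20 (0.964) and Gclc (0.963). For Slc39a14 they were the chemokine Cxcl1 (0.978), Adm, which encodes adrenomedullin (0.972), Ctps (0.972), the chemokine Ccl2 (0.969) and the kinase Jak2 (0.969). The best matches of the others were looser: Septin2 for Slc30a1 (0.862), P4ha1 for Mtf1 (0.773) and Jarid2 for Slc39a8 (0.749). Within groups the closest gene outside the members was Maff for Mt1 (0.798) and Il4ra for Mt2 (0.766).

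Lists of other genes are read against the shares of all 13089 genes called. With LPS, 13% of all genes were called higher and 23% lower in adults, and 9.58% higher and 13.3% lower in juveniles. With MV the shares were 7.15% higher and 24.3% lower in adults, and 4.42% higher and 6.45% lower in juveniles. With LPS+MV they were 14.8% higher and 27.3% lower in adults, and 10.8% higher and 20.5% lower in juveniles.

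The rest of the zinc transporters moved less than the metallothioneins. Of 12 other importers, 11 were tested. In adult LPS lungs 1 rose and 3 fell, in adult MV lungs 0 rose and 4 fell, and in adult LPS+MV lungs 1 rose and 5 fell, with medians of -0.14, -0.21 and -0.23 on the log2 scale. The medians over all genes were -0.04, -0.06 and -0.05, and with lists this short the counts are close to the shares of all genes. In juveniles 2 rose and 1 fell with LPS, 0 rose and 1 fell with MV, and 1 rose and 2 fell with LPS+MV. Slc39a2, a plasma membrane importer, rose with LPS at both ages, by 0.55 ± 0.10 in adults (adjusted p = 7.6e-05) and 0.70 ± 0.10 in juveniles (adjusted p = 4.2e-06). It was dim, with 35.0 to 55.2 in adult LPS lungs, against 16.3 to 25.0 in adult controls. Slc39a7, the importer from the endoplasmic reticulum and Golgi, fell in adult LPS lungs by 0.40 ± 0.08 on the log2 scale (adjusted p = 0.00032) and in adult MV lungs by 0.27 ± 0.08 (adjusted p = 0.012). Slc39a13 fell in adult MV lungs by 0.40 ± 0.08 (adjusted p = 0.00026). Slc39a4, the intestinal importer mutated in human acrodermatitis enteropathica, rose in juvenile LPS lungs by 0.60 ± 0.11 (adjusted p = 0.00023) and fell in adult MV lungs by 0.53 ± 0.11 (adjusted p = 0.00091).

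Of 9 other exporters, 6 were tested. In adult LPS lungs 2 rose and 1 fell, in adult MV lungs 2 rose and 2 fell, and in adult LPS+MV lungs 2 rose and 1 fell. In juveniles 1 rose and 1 fell with LPS, 0 rose and 1 fell with MV, and 0 rose and 2 fell with LPS+MV. Slc30a4, an exporter to vesicles that also serves zinc secretion into milk in mice, rose in all 3 adult treatments, by 0.50 ± 0.07 with LPS (adjusted p = 4.1e-06), 0.45 ± 0.07 with MV (adjusted p = 5e-05) and 0.60 ± 0.07 with LPS+MV (adjusted p = 1.5e-07). Slc30a6, an exporter of the Golgi, rose with LPS, by 0.40 ± 0.06 in adults (adjusted p = 1.3e-05) and 0.52 ± 0.06 in juveniles (adjusted p = 2.8e-07), and fell by 0.24 ± 0.06 in adult MV lungs (adjusted p = 0.0038). Slc30a7, another Golgi exporter, fell in adult MV lungs by 0.49 ± 0.12 (adjusted p = 0.0028). Slc30a5 fell in juvenile LPS+MV lungs by 0.33 ± 0.07 (adjusted p = 0.00096).

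**Figure D4:**
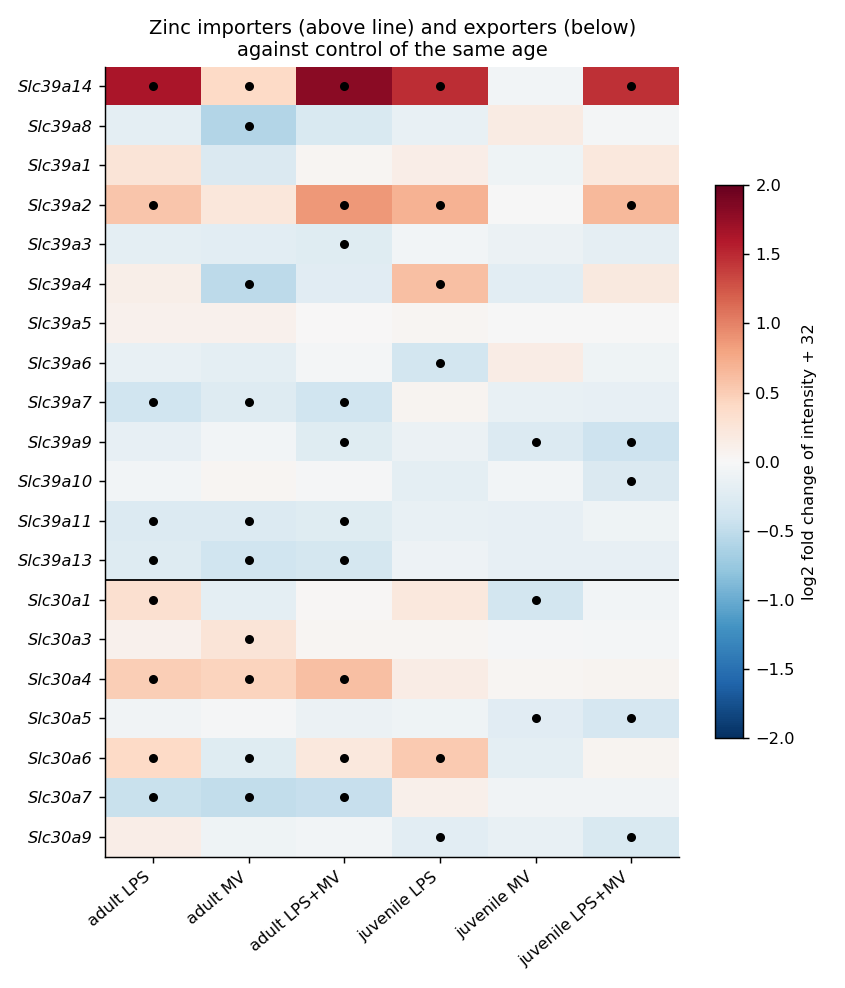
Log2 fold change of every tested zinc importer (above the line) and exporter (below) against control of the same age, with a dot where the adjusted p is under 0.05. Slc39a14 is the only row past 1, in the LPS and LPS+MV columns of both ages.

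Other genes reported to depend on MTF1 did not share a direction. Of 6, all tested, 2 rose and 2 fell with LPS at each age. The list gives no known direction for each gene, and the activity of MTF1 was not tested. Gclc, the catalytic subunit of glutathione synthesis, rose by 2.24 ± 0.15 in adult LPS lungs (adjusted p = 7e-12), by 1.84 ± 0.15 in juvenile LPS lungs (adjusted p = 3.3e-10) and by 0.79 ± 0.15 in adult MV lungs (adjusted p = 0.00037). Ndrg1 rose by 0.73 ± 0.13 in adult LPS lungs (adjusted p = 8.6e-05). The selenoprotein gene Selenoh fell by 0.63 ± 0.14 on the log2 scale in adult LPS lungs (adjusted p = 0.0012) and by 0.97 ± 0.14 in juvenile LPS lungs (adjusted p = 8.6e-06), and Selenow fell by 0.36 ± 0.11 in adult LPS lungs (adjusted p = 0.0097).

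Genes of iron and copper handling, which share carriers with zinc, were called upward in 7 of 17 tested with adult LPS (13% of all genes) and 9 of 17 with juvenile LPS (9.58% of all genes), and downward in 1 and 2. Steap4, a metalloreductase, rose by 3.40 ± 0.21 in adult LPS lungs (adjusted p = 7.2e-13) and 4.37 ± 0.21 in juvenile LPS lungs (adjusted p = 2.1e-15). Lcn2, which binds bacterial siderophores, rose by 2.22 ± 0.21 and 2.82 ± 0.21 in the same comparisons (adjusted p = 3.4e-09 and 2.4e-11). With MV alone 4 rose and 3 fell in adults, and 0 rose and 0 fell in juveniles.

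Gene groups known to move with metallothioneins are given beside them, and their part in the Mt1 and Mt2 changes was not tested. Of 15 genes linked to interleukin-6 and STAT3, 13 rose in adult LPS lungs (13% of all genes), 12 in juvenile LPS lungs (9.58%), 2 in adult MV lungs and 3 in juvenile MV lungs, where 1 fell. Of 12 glucocorticoid-responsive genes, 9 rose and 0 fell in adult LPS lungs (median 0.97 on the log2 scale), and 9 rose and 0 fell in adult MV lungs (median 1.08), where 7.15% of all genes rose. In juvenile LPS lungs 3 rose and 5 fell (median -0.50), and in juvenile MV lungs 2 rose and 0 fell (median 0.35). Fkbp5, a target of the glucocorticoid receptor, rose by 1.20 ± 0.24 in adult MV lungs (adjusted p = 0.00041), against 0.33 ± 0.26 in juvenile MV lungs (adjusted p = 0.46). Averaged over the 12 genes, juvenile control replicate 4, the juvenile control with the highest Mt1 and Mt2, had a log2 level of 10.25, and the other juvenile controls had 8.91 to 9.58. Of 7 genes of oxidative stress, 5 rose and 0 fell with LPS at each age. Of 5 heat shock genes, 2 rose in adult MV lungs and 2 in juvenile MV lungs, the inducible chaperones Hspa1a and Hspa1b at both ages. Hspa1b rose by 3.43 ± 0.79 in adult MV lungs (adjusted p = 0.0018) and by 2.76 ± 0.86 in juvenile MV lungs (adjusted p = 0.036). Hspa1a rose by 3.06 ± 0.83 in adult MV lungs (adjusted p = 0.006) and by 3.05 ± 0.89 in juvenile MV lungs (adjusted p = 0.027). The mean log2 level of the 5 genes was 8.95 to 11.07 in adult MV lungs, against 8.58 to 8.80 in adult control lungs, with no overlap. In juveniles it was 9.39 to 12.93 with MV, against 8.38 to 9.70 in controls, and the groups overlapped. In LPS lungs 1 of the 5 rose in adults, Hspa1b, and 0 in juveniles.

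Markers of other cells moved as well, and their part was not tested. Summed intensity of 9 neutrophil markers was 22001 to 36161 in adult LPS lungs and 2821 to 10211 in adult MV lungs, against 3036 to 24060 in adult control lungs. In juveniles it was 7691 to 9294 with LPS and 3572 to 5824 with MV, against 1215 to 4241 in controls. Of these 9 markers, 6 rose in adult LPS lungs and 4 in juvenile LPS lungs, and in adult MV lungs 1 rose and 1 fell. Alveolar type 2 markers, from cells that make surfactant, summed to 49501 to 54084 in adult LPS lungs, against 50554 to 53913 in adult control lungs. The mean log2 level of the same 6 markers, which weighs each alike, was 12.42 to 12.58 in adult LPS lungs, against 12.70 to 12.76 in adult control lungs, with no overlap, and 2 of the 6 rose and 2 fell. In adult MV lungs, where Slc39a8 fell, the sums of 5 other marker lists were lower than in adult control lungs and that of 1 was higher, with no overlap. For alveolar type 1 cells, of whose 6 markers 4 fell, the sums were 22064 to 24475 in adult MV lungs, against 28837 to 30726 in adult control lungs. For fibroblasts, with 3 of 5 markers lower, they were 6605 to 8772 in adult MV lungs, against 9558 to 11688 in adult control lungs. Lymphocyte sums, with 2 of 5 markers lower, were 795 to 929 in adult MV lungs, against 977 to 1191 in adult control lungs. Both red cell markers tested fell, with sums of 409 to 598 in adult MV lungs, against 1028 to 1438 in adult control lungs. Ciliated cell sums, with 1 of 3 markers higher and 1 lower, were 1548 to 1752 in adult MV lungs, against 1881 to 2431 in adult control lungs. The mean log2 level of the ciliated markers overlapped, at 8.10 to 8.25 in adult MV lungs, against 8.13 to 8.30 in adult control lungs. Smooth muscle sums were the higher ones, with 1 of 3 markers higher, at 4180 to 5351 in adult MV lungs, against 3318 to 3761 in adult control lungs. The mean log2 level of the smooth muscle markers overlapped as well, at 9.73 to 10.15 in adult MV lungs, against 9.63 to 9.77 in adult control lungs. None of these marker genes was at 0. Of 4 liver genes tested, 0 were called in any treatment against control.

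The other metallothioneins did not follow Mt1 and Mt2. Mt3, the form of brain, stayed between 17.3 and 28.6 on all arrays and was called in no comparison. Mt4, the form of stratified squamous epithelium, read 8.29 to 11.6 on 27 arrays. It read 166 in adult MV replicate 3, 550.3 in adult LPS+MV replicate 2 and 155 in adult LPS+MV replicate 3. On the same 3 arrays the squamous keratin Krt4 read 1711, 5361 and 1258, against 14.7 to 24.8 on the other 27, and Krt13 read 853, 3203 and 788, against 7.56 to 11.0. Sprr3, a cornified envelope protein, read 369, 1069 and 308, against 14.6 to 21.6. Of 8 genes of squamous epithelium, a list chosen after these values were seen, 6 were above every other array on all 3. Adult LPS+MV lungs were called higher than control for Mt4, by 1.52 ± 0.51 (adjusted p = 0.018), and without the 3 arrays Mt4 did not pass the filter on low values. Without them Mt1 and Mt2 in adult MV lungs were still called, Mt1 at 1.03 ± 0.26 (adjusted p = 0.0055) and Mt2 with adjusted p = 0.00059.

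**Figure D5:**
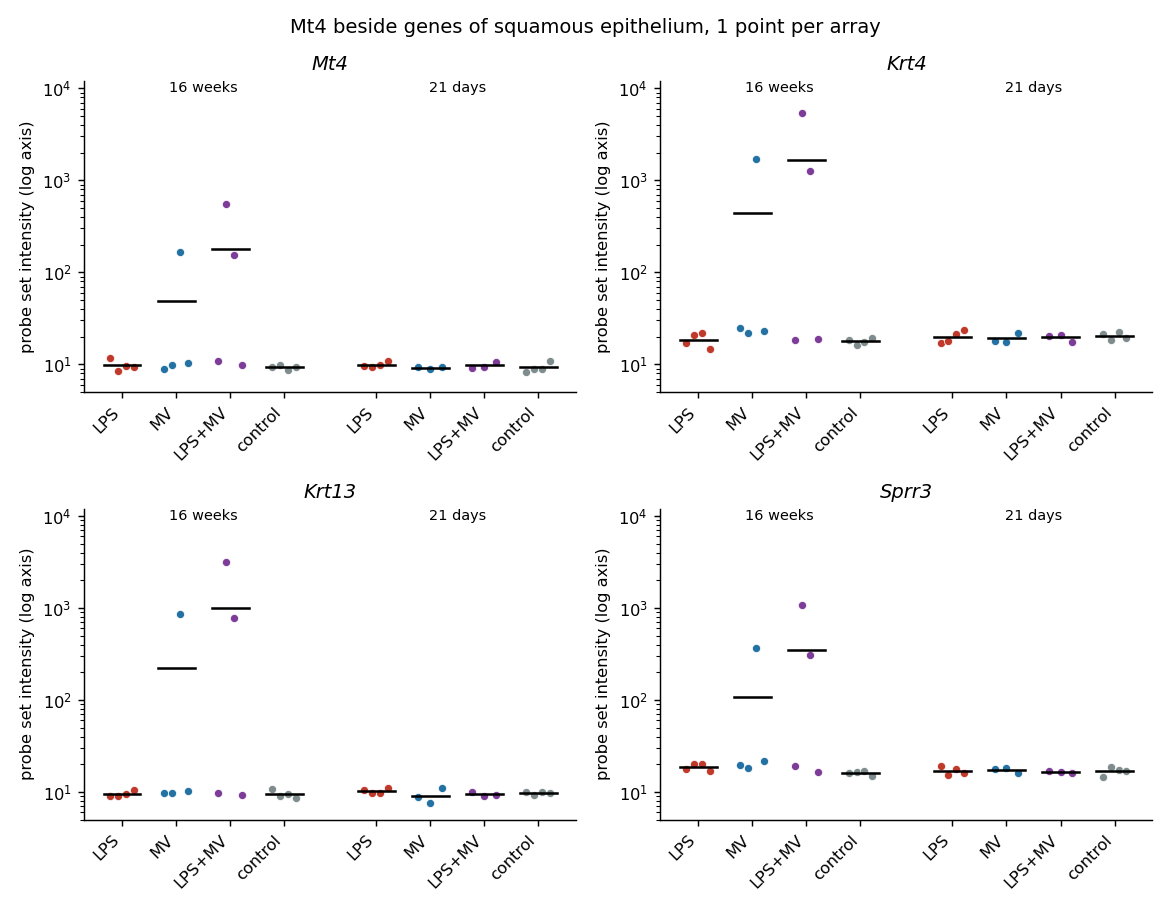
Intensity of Mt4 and of the squamous epithelium genes Krt4, Krt13 and Sprr3 on log axes, 1 point per array, bars at group means. The same 3 adult ventilated arrays are high in all 4 panels and the other 27 stay at background.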

How the data were processed

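Total RNA of whole lung from 30 mice was hybridized to Affymetrix mouse expression arrays, per the labels' protocols. The deposited values are probe set intensity on a linear scale, which the authors had already brought to a common level between arrays. The submitters' processing notes name MAS5 as their tool. The lowest value on any array was 4.50 and the values lack the low tail usual of MAS5, so how probe sets were summarised is in doubt, and fold changes of dim probe sets depend on it. The method of normalization is not given in the sources used here. Of 45037 probe sets, 34945 had 1 gene symbol in the platform annotation, 932 had several and 9160 were not listed, and none was named from a probe set with several.

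A probe set was kept if 3 or more arrays read it above their own median (24825 kept), values were taken as log2(intensity + 32), and each gene was represented by its probe set with the highest mean. Group means were fitted with limma 3.58.1 in R 4.3.3 (lmFit, eBayes with an intensity trend, 22 residual degrees of freedom), all 30 arrays sharing the spread. Each of the 19 comparisons used a two-sided test, with Benjamini-Hochberg adjustment over 13089 genes. The model was tested on simulated data. Figures were drawn with matplotlib 3.10.9. The number of arrays limits the precision.

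The 6 members and the gene lists were chosen with earlier results of these data known. All 6 members are named in each comparison of a treatment with control. Of each list up to 4 genes with the smallest p are named, or another member with its value. For likeness, the 5 genes outside the members with the highest Pearson correlation were found. Alternatives were no filter, a pseudocount of 1, quantile normalization, other treatments of several probe sets, no trend, array weights, fewer groups in the fit, a replicate block, a term for Xist and leaving out arrays. Replicate numbers were not taken to pair the mice, since no label gives them a shared origin. Deviations of arrays with the same number had a median correlation of 0.033 (-0.23 to 0.42), against -0.012 (-0.49 to 0.43) for other numbers.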

Additional observations from a re-analysis of the deposited data

Results flagged for a closer look

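Mt1 in juvenile control replicate 4 read 1399, far above the other 3 juvenile controls (539 to 625). Mt2 in juvenile LPS replicate 2 read 4587, below the other 3 of its group by more than their own spread. Slc39a14 in adult control replicate 3 read 42.2, against 59.1 to 59.8 in the other adult controls, and Slc39a14 in adult LPS+MV replicate 2 read 228, the lowest of its group. These 4 were found among 36 sets, each the values of 1 member in 1 group of 4 arrays. For a set chance gives about 1 in 20, and sets that share arrays are not independent. The change of Slc39a8 with MV differed between adults and juveniles by -0.74 on the log2 scale, by the interaction term of limma's fit. Krt4, which is not a zinc gene, read 5361 in adult LPS+MV replicate 2, where Mt4 was also high, against 14.7 to 24.8 on the 27 arrays without squamous transcripts.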

How the results depend on the processing

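Of 114 member values, 30 were called, and over 602 alternative settings of these, 584 kept direction and call and 0 reversed. These settings leave out the values that were not called, and some of those passed under an alternative. Slc30a1 in juvenile LPS+MV against LPS passed in 5 of 19 settings, and Mt2 between the controls in 4 of 20. In 95 settings an uncalled value turned sign while still uncalled. Counts of called members that moved by over 1.5 times were these. Quantile normalization gave 1 in LPS+MV against LPS at each age, against 0. Pseudocount 1 gave 2 between the controls, against 1. The mean over probe sets gave 0 in juvenile MV and in age by MV, against 1 each, 1 in juvenile LPS+MV against LPS and in adult against juvenile LPS, against 0 each, and 5 in adult LPS+MV, against 3. Array weights gave 3 in juvenile MV, 5 in adult LPS+MV, 1 in LPS+MV against LPS at each age, 4 between the controls and 2 in age by MV. The Xist term gave 2 in adult MV, against 4, and 0 in age by MV. Fitting the compared groups alone gave 0 in juvenile MV, 1 in juvenile LPS+MV against LPS, 5 in adult LPS+MV, 2 in adult LPS by MV, 2 between the controls and 2 in adult against juvenile LPS. Chosen after seeing the data, leaving out the 4 arrays that stood apart gave 1 in juvenile LPS+MV against LPS, 2 in adult LPS by MV, 3 between the controls and 2 in age by MV, and leaving out the 3 arrays with high Krt4 gave 0 in adult LPS by MV. The causes were not tested.

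Leaving out each array in turn gave 0 to 2 members in juvenile MV, 1 to 3 between the controls, 0 to 2 in age by MV, 0 to 1 in LPS+MV against LPS at each age, 1 to 2 in adult LPS by MV, 3 to 4 in juvenile LPS+MV against MV, in adult MV and in adult LPS+MV, and left the other counts as they were. Replicate numbers were not taken to pair the mice, since no label gives them a shared origin. Correlations of same-numbered arrays ran from -0.23 to 0.42 (median 0.033). Those of arrays with other numbers ran from -0.49 to 0.43 (median -0.012). As a hint from the data, 15 of 30 arrays correlated best with their own number, of up to 4 numbers. With the number as a replicate block, the counts were 3, 1 and 3 for juvenile LPS, MV and LPS+MV and 4, 4 and 3 for adults, and all 19 counts were as without it. Quantile normalization moved the share of lower calls over all genes to 52.9% in adult LPS by MV (23.1% as reported), 57.1% in adult LPS+MV against MV (30.9%), 46.8% in adult against juvenile MV (64.3%) and 53.9% in age by MV (78.9%). Dim probe sets, such as the second Mt1 probe set at 16.3 to 85.1, reach down to the array medians, which limits their fold changes.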
